A study of Mus musculus with 10 samples.

Results

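The 4 non-transgenic samples of a mouse oocyte series of 10 samples are described here by themselves, as a record of which mRNAs the fully grown oocyte holds before meiosis resumes. They were chosen by their labels, which call them non-transgenic and number them replicates 1, 2, 7 and 8. The other 6 samples, whose oocytes carried an RNA interference transgene against basonuclin, are not used for any value given below. Each of the 4 samples was total RNA of about 50 fully grown oocytes at the germinal vesicle stage, pooled from a single mouse, labelled with biotin and hybridised to an oligonucleotide array of 45101 probe sets. The controls carried no transgene. Their strain and the age of the mice are not given in the sources used here. A value is thus a mean over pooled oocytes of 1 mouse, and differences between oocytes of a mouse are not visible.

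A fully grown mouse oocyte has stopped making most of its RNA and is arrested in the first meiotic prophase with a large nucleus, the germinal vesicle. Its growth has stocked messages for the zona pellucida, for the proteins of meiosis and for the first divisions of the embryo, and many of these messages are stored with short poly(A) tails until maturation. Basonuclin, encoded by Bnc1, is a zinc finger protein of germ cells and of the basal layer of stratified epithelia.

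Values are log2 of the deposited array intensity, and 1 probe set, the one with the highest mean over the 4 samples, stands for each gene. In this way 18193 genes were measured, 9010 of them by more than 1 probe set. Intensities of different probe sets depend on their probes as well as on the RNA, so the place of a gene in the order of intensity belongs to its probe set and does not rank amounts of RNA. A gene was counted as above the level where its log2 value exceeded 5, an intensity of 32, in 4 of 4 samples. A value below this level does not show that the mRNA is missing. As a pair chosen after their values were seen, Rps16 and Rpl12, which encode proteins of every cytosolic ribosome and must be made by an oocyte too, had probe sets at 1.91 ± 0.07 and 1.77 ± 0.05 (SD, n = 4).

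Of the 18193 genes, 9900 (54.4%) were above the level in all 4 samples, 7317 (40.2%) were at or below it in all 4, and 976 (5.36%) were above it in 1 to 3 samples. A mean above log2 11 was reached by 1877 genes (10.3%). The arrays were alike in these counts: between 56.6% and 57.5% of genes were above the level on each, and their median intensities ran from 17.46 to 20.08. The array's control probe sets for Actb were between 3.44 and 4.01 higher at the 3′ end than at the 5′ end on the log2 scale. For Gapdh that difference was between 3.72 and 4.34. For both genes the 3′ probe sets thus read far higher than the 5′ ones in every sample. Whether the distance of a probe set from the 3′ end bears on its intensity at other genes was not tested.

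**Figure D1:**
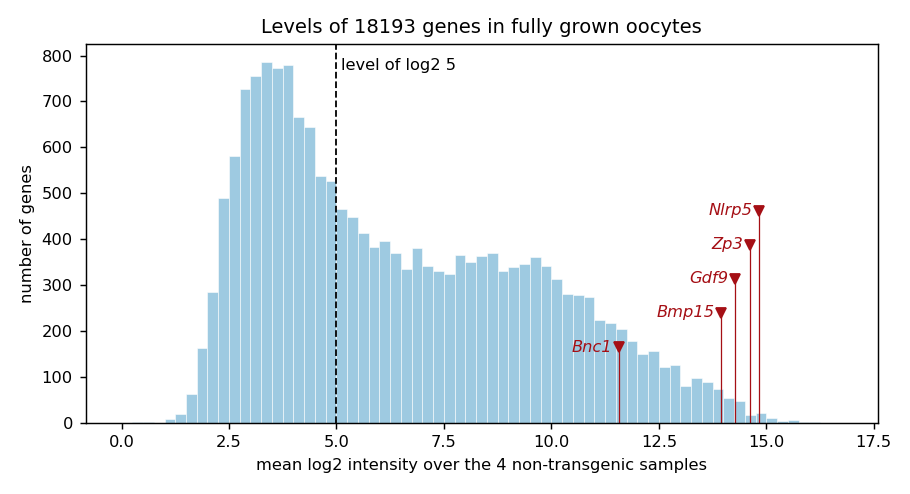
Histogram of the mean log2 intensity of 18193 genes over the 4 non-transgenic samples, with the level of log2 5 as a dashed line. Triangles mark the 5 oocyte markers, all of them to the right of log2 11.

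All 5 markers of the labelled cell type lay above log2 11 in every sample. Nlrp5, which encodes the MATER protein of the oocyte cortex, had values of 14.76, 14.84, 14.88 and 14.84 in replicates 1, 2, 7 and 8. Zp3, the zona pellucida protein that takes part in sperm binding, had 14.55, 14.61, 14.58 and 14.70. For Gdf9, a growth factor that the oocyte sends to granulosa cells, the values were 14.32, 14.22, 14.16 and 14.34. For its relative Bmp15 they were 13.86, 13.81, 14.09 and 14.04. The 4 samples lay close together for each of these genes, with SDs of 0.05, 0.07, 0.08 and 0.14. Bnc1 itself, the gene at which the study's transgene was aimed, had 11.40, 11.51, 11.61 and 11.76, a mean of 11.57 ± 0.15 (SD, n = 4). By intensity its probe set stood at place 1378, and those of Nlrp5, Zp3, Gdf9 and Bmp15 at places 37, 53, 105 and 176.

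The brightest probe sets belonged to a mixture of general and oocyte genes. Klhdc2, a substrate receptor of a cullin ubiquitin ligase, held place 1 on every array with 15.99, 15.98, 16.05 and 16.07. The other 3 probe sets of Klhdc2 were dimmer, and the brightest of them had a mean of 12.68. Hmgn1, a nucleosome-binding protein, followed with 15.87, 15.77, 15.89 and 15.87. Hspa8, the constitutive HSP70 chaperone, had 15.83, 15.87, 15.90 and 15.79, so Hmgn1 and Hspa8 overlapped and could not be ordered. Ldhb, the B subunit of lactate dehydrogenase, held place 4 on every array at 15.80, 15.73, 15.66 and 15.74. Elobl, a relative of the ubiquitin ligase adaptor elongin B, held place 5 on every array at 15.71, 15.65, 15.64 and 15.67.

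Among the 30 brightest genes, those of known oocyte families were the PRAME gene Pramel25 (15.54 ± 0.12), Nlrp14 (15.26 ± 0.08), Obox2 (15.13 ± 0.07), Fbxw24 (15.12 ± 0.05) and Oog3 (14.95 ± 0.19). Spin1 (15.59 ± 0.04) encodes spindlin, a chromatin reader that is among the most plentiful proteins of the mouse oocyte. Btg4 (14.96 ± 0.11) encodes the adaptor that brings the CCR4-NOT deadenylase to maternal messages when they are cleared. Plat (14.94 ± 0.09), tissue-type plasminogen activator, is a classical stored message that is translated when the oocyte matures. Bcl2l10 (15.23 ± 0.05) encodes a member of the BCL2 family. The uncharacterised genes E330021D16Rik (15.33 ± 0.11) and C86187 (15.16 ± 0.04), and Setd4 (14.97 ± 0.04), a methyltransferase, were also in this group.

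The remaining genes of the 30 brightest serve general functions. They were the chaperone Hsp90aa1, the ribosomal protein Rps29, the elongation factor subunit Eef1d, the histone-binding Rbbp7, the ubiquitin-conjugating enzymes Ube2d2a and Ube2d3, the elongin C gene Eloc, and the cyclin-dependent kinase partner Cks1b. Superoxide dismutase Sod1, glycogenin Gyg, the DNA damage adaptor Trp53bp1, the membrane linker Rdx and Oser1 completed the group. Their means lay between 14.94 and 15.55. Of the 30 genes, 23 were among the 30 brightest of each of the 4 arrays, and 82 of the 100 brightest were among the 100 brightest of each. The limit of the group is not a step, since the gene at place 30 had 14.94 and the gene at place 31 had 14.92. Of the 30 probe sets, 11 carry a suffix by which the maker marks sets that can match related transcripts, Klhdc2, Hmgn1, Hspa8, Obox2 and Oog3 among them. With all such sets left out, 19 of the 30 genes stayed among the 30 brightest. These are the genes without such a set, whose values do not change, so they were bound to stay. The 11 genes with such a set left the group.

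**Figure D2:**
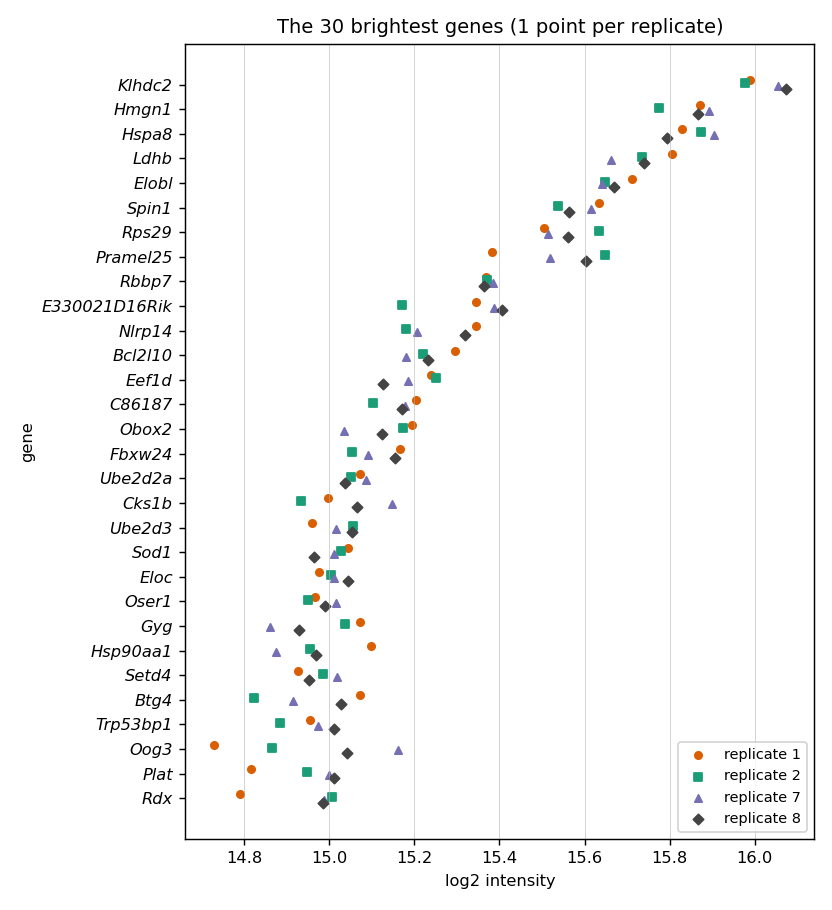
Log2 intensity of the 30 brightest genes, brightest at the top, with 1 point for each of the 4 replicates. The points of a gene lie close together, from Klhdc2 with a mean of 16.02 at the top to Rdx with 14.94.

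The zona pellucida and egg surface genes gave 6 of 7 above the level, beside 54.4% of all genes. Zp2 lay at 13.93 ± 0.06 and Zp1 at 13.42 ± 0.08, beside Zp3. Astl, the cortical granule protease that cleaves ZP2 after fertilisation, lay at 12.47 ± 0.07. Izumo1r, the sperm receptor also called JUNO, lay at 11.21 ± 0.33, and Cd9, the tetraspanin needed for gamete fusion, had 10.08, 9.54, 10.21 and 10.19. The single probe set of Cd81, another tetraspanin, lay at 2.37 ± 0.06. The 3 oocyte secreted protein genes Oosp1, Oosp2 and Oosp3, neighbours on chromosome 19, lay at 14.66, 14.12 and 14.22, with SDs of at most 0.07.

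Of the TGF-beta family ligands 8 of 18 (44.4%) were above the level, beside 54.4% of all genes, and Gdf9 and Bmp15 were accompanied by Tgfb2 (12.76 ± 0.34), Bmp5 (11.69 ± 0.28), Bmp6 (11.53 ± 0.09) and Tgfb3 (9.24 ± 0.14). Nodal and Gdf3 were just above it at 5.58 ± 0.32 and 5.28 ± 0.19. In 8 ligands all 4 samples were at or below the level, among them Bmp2, Bmp4, Bmp7 and Tgfb1, with means from 1.68 to 4.02. Of 22 fibroblast growth factors, 4 (18.2%) were above the level and 17 were at or below it in every sample. Fgf8, through which the mouse oocyte acts on cumulus cell glycolysis, lay at 9.80 ± 0.39, between 9.32 and 10.20. Fgf9 lay at 9.52 ± 0.17, Fgf1 at 6.78 ± 0.32 and Fgf7 at 6.77 ± 0.46.

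All 8 transcription regulators of the oocyte that were measured were above the level, beside 54.4% of all genes. Lhx8, a LIM homeobox factor needed for follicle formation, lay at 14.32 ± 0.07. Nobox, a homeobox factor of growing oocytes, had 12.10, 12.43, 12.52 and 12.85, and Bnc2, the paralogue of Bnc1, lay at 12.56 ± 0.10. Figla, which drives the zona genes, lay at 9.17 ± 0.37 and the TFIID subunit gene Taf4b at 9.14 ± 0.38. Sohlh2 and Sohlh1, helix-loop-helix factors of early oocytes, were the dimmest at 6.37 ± 0.31 and 5.40 ± 0.12.

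Gene families known for their expression in oocytes were mostly above the level. Over 8 lists, those of the egg surface and secreted proteins above and of the NLRP, Obox, TCL1, Oogenesin and PRAME, FBXW and subcortical maternal complex genes below, 52 genes were measured. Of these, 45 were above the level and 37 had a mean above 11. Beside these, 54.4% of all genes were above the level and 10.3% had such a mean. In the NLRP family, 11 of 14 genes were above the level. Nlrp14, Nlrp4a and Nlrp4f lay at 15.26, 14.73 and 14.67. Nlrp4b, Nlrp9a, Nlrp4e and Nlrp9c lay between 13.50 and 13.84, Nlrp9b lay at 11.32 ± 0.27 and Nlrp4c at 9.20 ± 0.14. Members known from inflammasomes and the gut read lower: Nlrp3 lay at 5.45 ± 0.05, and Nlrp6, Nlrp10 and Nlrp12 lay between 2.55 and 3.29 in the mean. Of the 14 genes, 12 are on chromosome 7.

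The subcortical maternal complex is a protein assembly under the egg membrane that the embryo needs for its first divisions. Of its measured members 7 of 7 were above the level, beside 54.4% of all genes. Ooep had 14.84, 14.79, 14.69 and 14.75. Zbed3 lay at 14.14 ± 0.06, and Tle6 lay at 14.13 ± 0.09. Khdc3, which encodes the FILIA protein, had a probe set at 9.97 ± 0.44, with replicate 8 the highest at 10.59. Padi6, which forms the lattices of the egg cytoplasm, lay at 13.92 ± 0.04, while the other 4 peptidylarginine deiminases, Padi1 to Padi4, lay between 2.56 and 3.22 in the mean. Of the TLE corepressor family Tle6 was the only member above 11, with Tle1, Tle4 and Tle5 between 7.49 and 8.70 and Tle2 at 2.50 ± 0.07.

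The rodent FBXW cluster, F-box proteins with WD repeats, had 9 of 9 genes above the level, beside 54.4% of all genes. Of the 9 genes, 8 lie on chromosome 9. After Fbxw24 came Fbxw21 (14.83 ± 0.03), Fbxw18 (14.48 ± 0.06), Fbxw19 (14.07 ± 0.03), Fbxw16 (13.96 ± 0.07) and Fbxw22 (13.92 ± 0.05), and the lowest was Fbxw17 at 9.23 ± 0.10. Of 4 oocyte homeobox genes Obox2 and Obox5 (14.22 ± 0.13) were high, Obox3 lay at 7.77 ± 0.13 and Obox6 at 4.38 ± 0.04. The 4 TCL1 family genes, all on chromosome 12, ran from Tcl1 at 14.21 ± 0.11 down to Tcl1b3 at 10.78 ± 0.12. Of the Oogenesin and PRAME lists, Oog4 lay at 12.91 ± 0.29 and Pramel13 at 11.74 ± 0.08, whereas Pramel6 and Pramel7, known from pluripotent cells of the embryo, lay at 4.83 ± 0.16 and 4.37 ± 0.13. Members of these families are similar in sequence, so the array can report part of the signal of one under the name of another.

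**Figure D3:**
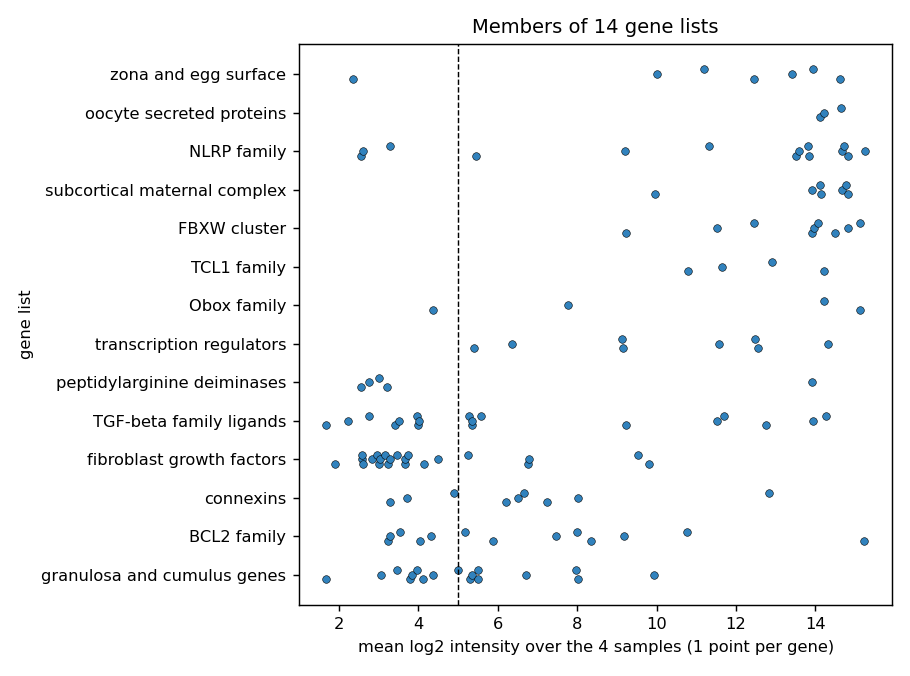
Mean log2 intensity of each measured member of 14 gene lists over the 4 non-transgenic samples, 1 point per gene, with the level of log2 5 as a dashed line. The FBXW cluster and the subcortical maternal complex lie wholly above the line, the peptidylarginine deiminases and the fibroblast growth factors mostly below it.

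Messages for the storage, translation and removal of RNA were mostly above the level. All 10 Y-box and storage protein genes were above the level, beside 54.4% of all genes. Ybx3 lay at 14.49 ± 0.12, Zar1, a maternal-effect RNA-binding protein, at 14.05 ± 0.07, and Lsm14a and Lsm14b, components of messenger storage particles, at 13.70 ± 0.07 and 13.66 ± 0.05. Ybx2, the germ cell protein MSY2, lay at 10.86 ± 0.11 and Dazl at 12.86 ± 0.29. Of the CPEB proteins, which hold stored messages and later extend their tails, Cpeb1 had 13.62, 13.33, 13.43 and 13.42, Cpeb4 lay at 11.07 ± 0.19 and Cpeb3 at 10.48 ± 0.07. Cpeb2 lay at 4.44 ± 0.26. All 12 genes of the BTG family, its partners and the deadenylases were above the level, with Cnot7 at 14.55 ± 0.08 and Cnot6l at 13.57 ± 0.11 next to Btg4.

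Poly(A)-binding and cap-binding proteins showed members known from oocytes beside general ones. Pabpn1 lay at 14.87 ± 0.16 and its oocyte relative Pabpn1l at 12.78 ± 0.30. Pabpc4 lay at 11.05 ± 0.15, the embryonic poly(A)-binding protein Pabpc1l at 9.10 ± 0.35 and the somatic Pabpc1 at 8.98 ± 0.46. Pabpc2, Pabpc4l, Pabpc5 and Pabpc6 lay between 2.41 and 3.81 in the mean. The cap-binding Eif4e3 lay at 14.36 ± 0.30, with values from 14.03 to 14.76, Eif4e at 12.14 ± 0.17, and Eif4enif1, which carries eIF4E into storage, at 12.34 ± 0.09. Of the small RNA machinery 7 of 11 genes (63.6%) were above the level, beside 54.4% of all genes. Drosha lay at 12.02 ± 0.11, Dicer1, which makes the endogenous siRNAs of mouse oocytes, at 11.76 ± 0.23, Ago3 at 9.17 ± 0.12 and Ago2 at 7.64 ± 0.25. Piwil1 lay at 7.34 ± 0.35, and Piwil2 and Piwil4 lay at 4.79 ± 0.12 and 4.53 ± 0.43.

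Among chromatin genes, the oocyte linker histone H1f8 had 14.06, 14.24, 14.19 and 14.22. Of the other 6 measured linker histones, H1f2 lay at 9.44 ± 0.44, H1f10 at 6.86 ± 0.15 and H1f6 at 5.96 ± 0.18, and the remaining members were at or below the level. Dnmt1, the maintenance DNA methyltransferase, lay at 14.28 ± 0.09 and its partner Uhrf1 at 13.37 ± 0.05. The de novo enzyme Dnmt3a lay at 11.17 ± 0.16, its cofactor Dnmt3l at 9.97 ± 0.11 and Dnmt3b at 9.26 ± 0.07. Of the dioxygenases that oxidise methylcytosine, Tet3, the enzyme of the zygote, lay at 7.97 ± 0.19, Tet1 at 5.24 ± 0.25 and Tet2 at 2.70 ± 0.07.

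The control of meiotic arrest and of the M phase was represented on most of its steps. Of 12 genes for CDK1 and its control, 11 (91.7%) were above the level, beside 54.4% of all genes. Wee2, the oocyte kinase that keeps CDK1 inactive, had 14.04, 14.11, 14.13 and 14.10, and Mos, the kinase of the cytostatic arrest, had 13.89, 14.09, 13.96 and 14.04. Fbxo5, which encodes the APC/C inhibitor EMI1, lay at 13.26 ± 0.27, and Cdc20, its activator, at 12.64 ± 0.22. Cdk1 lay at 11.57 ± 0.07, Cdc25a at 10.10 ± 0.25 and Cdc25b, the phosphatase needed for the resumption of meiosis, at 8.65 ± 0.23. Fbxo43, which encodes EMI2, an APC/C inhibitor that maintains the second arrest, was at or below the level in every sample with 3.39, 3.41, 4.56 and 4.52. Of 13 measured cyclins 11 (84.6%) were above the level, with Ccnb2 at 10.41 ± 0.10, Ccnb3 at 8.32 ± 0.29 and Ccna2 at 11.35 ± 0.09. Ccnb1 had no gene value. Ccna1 lay at 3.69 ± 0.10.

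The polo and aurora kinases included Plk4 (13.55 ± 0.06), which starts centriole duplication and acts in spindles without centrioles, Aurkc (11.85 ± 0.37) and Aurka (11.38 ± 0.16). Aurkc, the germ cell member of its family, had its lowest value in replicate 1 at 11.39. Plk1 lay at 10.15 ± 0.21 and Plk2 at 4.00 ± 0.14. Of the cohesins 7 of 8 were above the level. The general kleisin Rad21 lay at 12.97 ± 0.10 and the meiotic Smc1b and Stag3 at 7.62 ± 0.22 and 6.43 ± 0.19. The single probe set of Rec8, the meiotic kleisin, lay at 2.32 ± 0.12. Of 16 genes for synapsis and recombination, which act in fetal oocytes, 9 (56.2%) were above the level, beside 54.4% of all genes. Syce2, part of the central element of the synaptonemal complex, had 14.18, 14.45, 14.38 and 14.38, and Sycp2, Tex12 and Sycp3 lay between 10.23 and 10.47. Spo11, which makes the meiotic breaks, and Msh5 lay at 2.86 ± 0.14 and 2.45 ± 0.08.

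Of 15 genes for cyclic AMP and meiotic arrest, 8 (53.3%) were above the level, beside 54.4% of all genes. Gpr3, the receptor that sustains cyclic AMP, had 9.79, 10.34, 10.46 and 10.39. Its relatives Gpr12 and Gpr6 lay at 5.06 ± 0.20, above the level in 2 of 4 samples, and at 3.01 ± 0.14. Of the adenylyl cyclases Adcy9 and Adcy5 lay at 9.38 ± 0.03 and 9.35 ± 0.17, Adcy2 at 7.04 ± 0.21 and Adcy3, the form best known in mouse oocytes, at 5.64 ± 0.13. Pde3a, the phosphodiesterase that lowers cyclic AMP at maturation, had 6.69, 6.67, 6.96 and 6.21, and its 3 probe sets did not lie together, the next having a mean of 3.99. Pde3b lay at 10.20 ± 0.12.

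For the calcium signal of fertilisation, 5 of 10 genes (50%) were above the level, beside 54.4% of all genes. Itpr1 and Trpv3 had no gene value. Atp2a2, the calcium pump of the endoplasmic reticulum, lay at 14.13 ± 0.06, and Camk2g, the kinase that answers the calcium rise, at 12.43 ± 0.15. Camk2a and Camk2b, known from neurons, lay at 4.06 ± 0.14 and 2.83 ± 0.14, and Plcz1, the phospholipase that the sperm brings, at 3.18 ± 0.20. Of 9 connexins Gja4, the connexin 37 of the oocyte's own gap junctions, had 12.74, 12.85, 12.84 and 12.93. Gja1, connexin 43 of granulosa cells, lay at 8.01 ± 0.64 with a low value of 7.17 in replicate 7. The remaining connexins lay at or below 7.24.

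Of 23 genes for isozymes of glucose uptake and glycolysis, 12 (52.2%) were above the level, beside 54.4% of all genes. Beside Ldhb, the lactate dehydrogenase genes Ldha and Ldhc read differently: Ldha had 4.72, 4.71, 4.05 and 4.89, never above the level, and the testis form Ldhc had 7.29, 8.18, 8.05 and 9.45. Ldhc was highest in replicate 8, and its next probe set had the same order of extremes, with 6.35 in replicate 1 and 7.86 in replicate 8. The glucose transporter Slc2a1 lay at 12.21 ± 0.22, while Slc2a2, Slc2a3, Slc2a4 and Slc2a8 lay between 2.90 and 3.67 in the mean. Aldoa and Pkm lay at 11.45 ± 0.08 and 11.25 ± 0.13, Aldoc and Pklr at 4.74 ± 0.11 and 5.41 ± 0.03. Of 14 tubulins 10 (71.4%) were above the level. The highest were Tubb2a (14.76 ± 0.04), Tubb2b (14.62 ± 0.16), Tuba4a (14.08 ± 0.11) and Tubb4b (14.07 ± 0.03), and the platelet form Tubb1 lay at 1.93 ± 0.07. Of 6 actins the cytoplasmic Actg1 and Actb lay at 12.41 ± 0.21 and 12.23 ± 0.13, and the muscle forms Acta1 and Actc1 at 3.39 ± 0.06 and 3.36 ± 0.06.

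Of the BCL2 family, 8 of 13 genes (61.5%) were above the level, beside 54.4% of all genes, and Bcl2l10 was the only one above 11. Bax had no gene value. Bcl2l1, which encodes the survival protein BCL-XL, lay at 10.76 ± 0.08, Bcl2l11, the death inducer BIM, at 9.18 ± 0.42, and Mcl1, which oocytes need to survive, at 7.99 ± 0.32. Bcl2 itself lay at 5.88 ± 0.20. Bbc3 and Pmaip1, which encode the p53 targets PUMA and NOXA, lay at 4.03 ± 0.21 and 4.33 ± 0.29. Trp63, the guardian of resting oocytes, had 7.49, 7.28, 7.13 and 8.20. Trp53 had no gene value.

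Genes of pluripotency and of the early embryo gave 12 of 17 (70.6%) above the level, beside 54.4% of all genes. Dppa3, also called Stella, had 14.07, 13.71, 13.93 and 13.90, and Dppa5a (13.89 ± 0.17), Klf17 (13.25 ± 0.30), Dppa2 (13.04 ± 0.13) and Sall4 (12.82 ± 0.20) were nearby. Pou5f1, the OCT4 gene, lay at 10.87 ± 0.17 and Lin28a at 10.79 ± 0.15. Sox2 had 4.89, 5.41, 6.19 and 6.21, with replicate 1 under the level, and Nanog lay at 3.05 ± 0.11. Of 3 genes known from the 2-cell embryo Usp17la lay at 5.24 ± 0.09, and Tdpoz1 and Zfp352 lay at 3.86 ± 0.33 and 3.33 ± 0.02.

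Genes of large protein machines were above the level almost throughout, beside 54.4% of all genes. Translation factor genes were taken by name, Eif or Eef and a digit, which also takes in enzymes acting on these factors, such as Eef2k and Eef2kmt. Of mitochondrial ribosomal protein genes 75 of 76 were above the level, of respiratory chain and ATP synthase genes 82 of 90, of translation factor genes 51 of 58, of cytosolic ribosomal protein genes 42 of 48 and of proteasome genes 35 of 40. Their medians, over all measured members, were 9.84, 10.84, 11.19, 12.29 and 11.29. The highest member of each was Mrps22 (13.40 ± 0.09), Cox5a (14.82 ± 0.06), Eef1d (15.20 ± 0.06), Rps29 (15.55 ± 0.06) and Psmb4 (14.35 ± 0.05). Several of the members below the level, which are named here after their values were seen, are forms known from other tissues. Psmb8 and Psmb9, of the immunoproteasome, lay at 3.95 ± 0.21 and 2.27 ± 0.05, Psmb10, of the same particle, at 4.37 ± 0.04, and the testis form Psma8 at 3.60 ± 0.21. Cox4i2, Cox7a1, Cox7b2 and Cox8b, respiratory subunits of lung, muscle or testis, lay between 2.48 and 4.10 in the mean. Others, such as Rps16, Rpl12, Rps27 (3.61 ± 0.03) and Cox7c (3.17 ± 0.18), encode parts that most cells use.

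Receptor and structural families of other tissues were mostly below the level, which 54.4% of all genes exceeded. Of 39 olfactory receptor genes 3 (7.69%) were above it. Olfr288 had a mean of 12.19 ± 0.28, and Olfr976 had 10.88, 9.73, 11.50 and 11.14. Olfr15 lay at 6.15 ± 0.05. Of 37 vomeronasal and taste receptor genes 4 (10.8%) were above the level, Vmn1r148 being highest at 8.81 ± 0.81. Hox cluster genes gave 5 of 36 (13.9%), of which Hoxa5 was the highest at 8.28 ± 0.13. Keratin genes gave 12 of 48 (25%), with Krt12, the keratin of the cornea, at 11.98 ± 0.08 and Krt10 at 9.27 ± 0.41. Of numbered zinc finger genes 193 of 336 (57.4%) were above the level, beside 54.4% of all genes, and 15 of the 336 had a mean above 11, beside 10.3% of all genes. Zfp296 and Zfp655 were the highest of them at 13.06 ± 0.09 and 12.88 ± 0.12.

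Markers of cells that could have come along with the oocytes were examined as lists. Of 17 granulosa and cumulus genes, 6 (35.3%) were above the level, beside 54.4% of all genes, and none had a mean above 11. The log2 of their summed intensity lay between 10.83 and 10.99. Amh and Inhba, secreted by granulosa cells, lay at 1.68 ± 0.05 and 3.97 ± 0.06, and the cumulus expansion genes Has2, Ptgs2, Ptx3 and Tnfaip6 lay between 3.46 and 4.11 in the mean. Of the 6 above, Nr5a2 was highest at 9.96, 9.83, 10.06 and 9.91. Gata4 and Gja1 lay at 7.98 ± 0.33 and 8.01 ± 0.64. Fshr, the receptor for follicle-stimulating hormone, lay at 5.51 ± 0.30, Kitl at 6.72 ± 0.34 and Wt1 at 5.31 ± 0.11. In pooled oocytes a few attached cells and a low level in the oocyte cannot be told apart, and the part of granulosa cell RNA in these values was not tested.

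Of 12 genes of theca, stroma and vessels, 3 (25%) were above the level, beside 54.4% of all genes. Their summed intensities lay between 8.47 and 8.77 on the log2 scale. Their highest member was Tek at 6.80 ± 0.41, and Postn and Kdr lay at 6.68 ± 0.29 and 5.53 ± 0.29, while Cyp17a1, Pecam1 and Cdh5 lay between 2.45 and 3.25 in the mean. Of 11 blood and immune genes, 4 (36.4%) were above the level, with sums between 11.77 and 12.09. Srgn, a proteoglycan of secretory granules, had 11.14, 11.31, 11.36 and 11.27. H2-Aa had 8.89, 10.35, 8.67 and 9.69, and Laptm5 had 9.65, 8.38, 8.22 and 7.92. Adgre1, the macrophage gene of the F4/80 antigen, had 6.84, 6.77, 6.35 and 6.70. Other defining genes were below the level: Ptprc (CD45), Cd68 and Cd74 lay between 2.43 and 2.93, and the haemoglobin gene Hba-a1 lay at 3.99 ± 0.17. Of 42 genes that define organs other than the ovary, 7 (16.7%) were above the level and none was above 11. The 7 were Krt10 (9.27 ± 0.41), Mbp (7.98 ± 0.42), Cela1 (7.03 ± 0.27), Prm2 (6.61 ± 0.24), Mb (6.55 ± 0.32), Pde6a (5.28 ± 0.35) and Ins2 (5.21 ± 0.10). Alb, the albumin gene of the liver, was among those below it at 4.38 ± 0.06.

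The share of genes above the level varied with the CG content of their promoters. CG pairs are rare in the mouse genome except in CpG islands, which mark the promoters of most broadly used genes. In the 300 base windows that RefSeq gives around the start of a gene on GRCm38.p6, from 250 bases before to 50 after it, CG pairs were counted for 11791 genes with a single window. The pair CG reads alike on both strands, and 18.8% of these genes had 0 to 4 of them. Of genes with 0 to 4 CG pairs 22.7% were above the level. The share was 31.6% with 5 to 9, 60.2% with 10 to 19, 71.9% with 20 to 29 and 73.1% with 30 or more. The median window of genes above the level held 22 CG pairs, and that of genes at or below it in all samples held 8.

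The oocyte family genes had few CG pairs. For 30 of their genes above the level a single window was at hand, and its median was 2 CG pairs; 26 of them (86.7%) held fewer than 10, against 15.9% of all genes above the level. Cytosolic ribosomal protein genes had a median of 22. These counts describe the windows and were not tested. Many of the oocyte family genes are relatives that share a chromosome, so their windows may not be separate cases. The following 5 windows, read 5′ to 3′ on the strand of the gene with every CG in capitals, run from 0 CG pairs to 50. Elobl (chr11:88966882-88967181, minus strand) held 0 CG pairs, Bmp15 (chrX:6320675-6320974, minus strand) held 2, Zp3 (chr5:135979855-135980154, plus strand) held 7, Hmgn1 (chr16:96127676-96127975, minus strand) held 37 and Bnc1 (chr7:81992250-81992549, minus strand) held 50.
Elobl: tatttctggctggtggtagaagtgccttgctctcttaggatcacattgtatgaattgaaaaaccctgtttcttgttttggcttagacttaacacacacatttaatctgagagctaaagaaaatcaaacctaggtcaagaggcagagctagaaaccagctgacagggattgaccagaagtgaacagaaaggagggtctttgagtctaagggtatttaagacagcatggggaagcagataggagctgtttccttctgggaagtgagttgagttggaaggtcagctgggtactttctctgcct
Bmp15: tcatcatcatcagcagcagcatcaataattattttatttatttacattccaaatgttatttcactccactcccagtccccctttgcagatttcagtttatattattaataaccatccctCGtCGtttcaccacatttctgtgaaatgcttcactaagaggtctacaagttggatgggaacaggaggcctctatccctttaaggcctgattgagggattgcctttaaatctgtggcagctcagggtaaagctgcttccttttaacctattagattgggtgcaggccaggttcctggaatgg
Zp3: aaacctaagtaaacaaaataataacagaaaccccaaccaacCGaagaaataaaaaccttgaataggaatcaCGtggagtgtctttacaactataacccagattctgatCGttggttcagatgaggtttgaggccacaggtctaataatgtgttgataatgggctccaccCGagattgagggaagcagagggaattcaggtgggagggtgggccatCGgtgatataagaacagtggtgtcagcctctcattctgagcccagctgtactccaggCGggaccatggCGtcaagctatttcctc
Hmgn1: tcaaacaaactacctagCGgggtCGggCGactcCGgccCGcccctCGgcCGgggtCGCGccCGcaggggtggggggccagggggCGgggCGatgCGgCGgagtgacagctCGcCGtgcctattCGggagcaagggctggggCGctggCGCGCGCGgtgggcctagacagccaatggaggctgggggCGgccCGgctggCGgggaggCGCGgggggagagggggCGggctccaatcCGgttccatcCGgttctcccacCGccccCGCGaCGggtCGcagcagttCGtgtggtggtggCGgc
Bnc1: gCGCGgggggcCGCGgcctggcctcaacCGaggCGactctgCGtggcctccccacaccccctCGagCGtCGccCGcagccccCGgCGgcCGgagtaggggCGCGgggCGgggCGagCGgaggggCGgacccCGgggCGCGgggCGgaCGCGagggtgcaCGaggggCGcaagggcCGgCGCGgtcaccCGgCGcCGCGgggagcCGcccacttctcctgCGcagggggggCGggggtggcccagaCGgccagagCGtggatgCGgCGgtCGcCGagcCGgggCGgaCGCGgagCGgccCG

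In these windows Elobl, Bmp15 and Zp3 hold few CG pairs or none. Hmgn1, which most cells use, and Bnc1, one of the 5 oocyte markers, carry runs of CG pairs through most of the window. Elobl and Hmgn1 were both among the 5 brightest genes, with 0 and 37 CG pairs. Of the 11791 genes with a single window, 32.7% had fewer than 10 CG pairs in it, Zp3 among them. In 17.9% it held 30 or more, as in Bnc1.

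**Figure D4:**
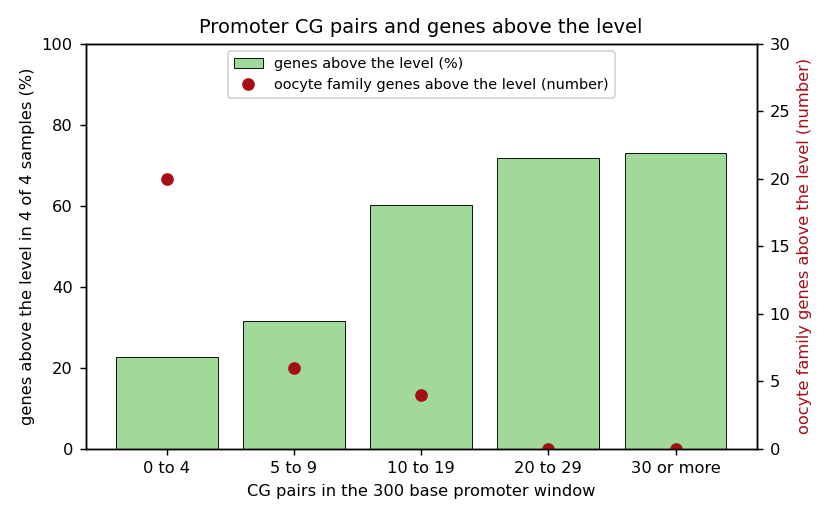
Bars give the percent of genes above the level in all 4 samples by the number of CG pairs in the 300 base promoter window, for 11791 genes with a single window, and points give the number of oocyte family genes above the level in each class. The bars rise from 22.7% to 73.1%, while most oocyte family genes lie in the lowest classes.

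The share above the level was also counted by chromosome. Of 618 X-linked genes 46.4% were above it, and of 17513 autosomal genes 54.8% were. On single arrays the X share ran from 47.9% to 49% and the autosomal share from 57% to 57.8%, so that the ranges of the 4 arrays did not overlap. Among the genes above the level the median was 8.39 on the X chromosome and 8.62 on the autosomes. With the mean of all probe sets of a gene these medians were 7.57 and 7.58. The 4 arrays measured the same genes, so they are repeated measurements of a single set of genes.

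Among genes with a mean above 7, the 4 samples lay closer together the brighter the gene. Their spread holds the difference between mice and that between arrays, which cannot be told apart. On the linear scale the brightest probe set reached 71992.1, and the dimmest of the array maxima was 65468.2. The brightest genes lie near these values, and whether the upper end of the scale narrowed their spread was not tested. Across the genes above the level the Pearson correlation between 2 arrays lay between 0.982 and 0.991, over genes, which are not independent replicates. The median SD of a gene above the level was 0.18 on the log2 scale, a factor of 1.13, and 69.7% of them had an SD under 0.25. It was 0.223 for means from 7 to 9, 0.178 from 9 to 11, 0.141 from 11 to 13 and 0.049 above 15. Genes below these means had median SDs of 0.075 for means up to 3, 0.138 from 3 to 5 and 0.207 from 5 to 7. The 8 genes of lowest SD with a mean above 11 were Rbbp7 (15.37), Pkd2l2 (14.11), Arf1 (14.08), Stx5a (13.74), Tbca (13.61), Ngdn (12.74), Tent4b (11.63) and Cltc (11.42), each with an SD of at most 0.02. Rbbp7 had 15.37, 15.37, 15.38 and 15.36.

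Probe sets of a gene differed far more than replicates. For the 6146 genes above the level with more than 1 probe set, the brightest set exceeded the next by a median of 2.07 on the log2 scale, a factor of 4.19. The next set was at or below the level for 2209 of these genes (35.9%) and within 1 of the brightest for 26.9%. Plat shows the spread: its probe sets had means of 14.94 and 4.94. For comparison, the median absolute difference between 2 arrays, over all genes above the level, lay between 0.165 and 0.224. The median gap of 2.07 between probe sets was far larger, and it also holds the choice of the brightest set.

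Some genes differed widely between samples. Of 7188 genes with a mean above 7, 75 (1.04%) spanned more than 2 on the log2 scale, a factor of 4, from the lowest to the highest sample. The 4 values of each gene were divided at the largest gap between neighbours in their order, which also divides genes whose values are graded. By this rule replicate 1 alone was low in 32 of them, whereas replicates 2, 7 and 8 were alone low in 3, 5 and 5. A further 19 had 2 low and 2 high samples, 11 of these with replicates 1 and 2 on the same side, and in 11 a single sample was high. Replicate 1 also differed by more than 2-fold in 278 to 354 genes from the other arrays, while replicates 7 and 8 differed so in 114. Without replicate 1, 35 genes spanned more than 2, and without replicates 2, 7 or 8 between 54 and 59 did.

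Manba, a lysosomal mannosidase, had the widest range, with 2.66 in replicate 1 and 11.92, 12.09 and 11.92 in the others. Rhbdf1, a rhomboid pseudoprotease, had 4.63 in replicate 1 and 11.16, 10.42 and 10.30 in the others. Lypd3 (4.68, 10.25, 10.49 and 10.40) and Tox3 (3.72, 9.29, 9.21 and 9.18) had the same form. In each of them 1 sample was at or below the level and the others were alike. Lzts1, Slc23a3 and Tex19.2 also had their low value in replicate 1 only, at 4.61, 5.31 and 5.90 against at least 8.82 elsewhere. The 32 genes low in replicate 1 alone included 8 on chromosome 11 (25% against 7.97% of genes with a mean above 7) and 7 on chromosome 8 (21.9% against 5.83%). These chromosomes are named after their counts were seen, as those with the most, each other chromosome held between 0 and 3 of the 32, and the distribution was not tested.

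Other genes divided the samples differently. Arid5b, a DNA-binding cofactor, had 5.54 and 4.97 in replicates 1 and 7 but 11.18 and 11.23 in replicates 2 and 8. Cdc5l, a splicing factor, had 10.62 and 11.11 in replicates 1 and 2 but 4.61 and 6.05 in replicates 7 and 8. Rilpl1, a regulator of cilia, had 12.57 and 12.91 against 7.68 and 7.46 in the same division. Slc14a1, a urea transporter, was low only in replicate 8 at 2.53, against values from 9.16 to 9.44, and Pde6b only in replicate 7 at 4.15, against values from 8.29 to 9.34. Dbt, a subunit of the branched-chain dehydrogenase, was high only in replicate 2, with 7.37, 11.71, 7.79 and 7.09. Tceal8 and Gli3 had graded values, although the rule of the largest gap counts them among the genes low in replicate 1 alone: Tceal8 had 2.94, 8.86, 10.94 and 6.60, and Gli3 had 4.96, 7.26, 8.09 and 9.70.

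A second probe set, where there was one, often repeated the pattern. Of the 75 genes 21 had another probe set above log2 7 in some sample, and in 15 of these it was low in the same samples and spanned more than 2-fold. Among 2689 genes at large with such a second set, it spanned more than 2-fold in 8.66%. The second set of Arid5b had 4.69, 9.10, 4.87 and 9.31, and that of Cdc5l had 9.90, 9.20, 3.32 and 3.76. Those of Rilpl1 had 11.66, 11.83, 7.41 and 6.68 and of Slc14a1 8.33, 7.86, 8.29 and 2.79. Ublcp1, a phosphatase of the proteasome chosen here after its values were seen, was low in replicate 1 in 4 of its 5 probe sets, the brightest reading 8.32, 10.22, 10.47 and 10.59. Rps9, a ribosomal protein gene, was an exception, also chosen after its values were seen. The brightest set of Rps9 had 10.25 in replicate 1 and at least 13.70 elsewhere, but its next set had 9.89, 10.19, 10.20 and 9.88 and no low sample. What set these genes apart between samples was not tested.

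**Figure D5:**
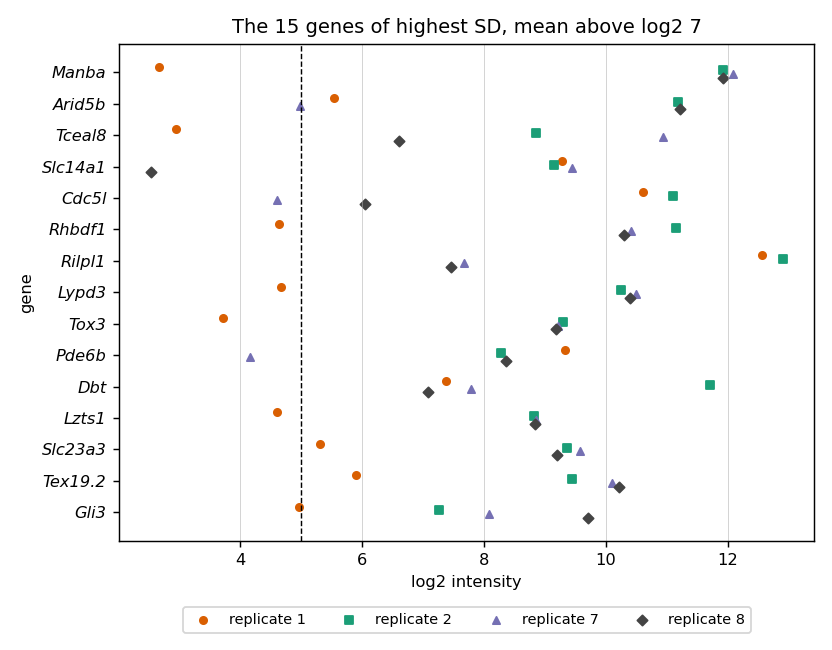
Log2 intensity of the 15 genes of highest SD among those with a mean above 7, with 1 symbol for each of the 4 replicates and the level of log2 5 as a dashed line. Replicate 1 is the lowest in 9 of them, Manba at 2.66 being the farthest from its other values.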

How the data were processed

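The deposited values are array intensities on a linear scale, made by the authors with GCRMA, per the submitters' processing notes, which subtracts a background modelled from probe sequence and can place dim genes at a common floor. Per the labels, RNA came from about 50 oocytes of 1 mouse per sample, while the labels' protocol gives a labelling input of about 15 µg of total RNA; the sources used here name no amplification step, so how the input was reached, and any effect of that on the intensities, was not tested. Intensities were taken as log2 with no further normalization. Probe sets were named through GEO's platform annotation, with symbols updated by RefSeq gene number for 34754 of 34958 probe sets with 1 gene. The 932 probe sets with several genes and the 9160 with no listed gene, array controls apart, gave no gene value. No test was made, since a single group is described. The members, the gene lists and the named genes were chosen with earlier results of these data known. Of lists given by single genes some members are named and others are not. Of lists given by a name pattern up to 3 of the highest members are named. The 30 brightest genes, the 15 of highest and the 8 of lowest SD are named too. Others are said to be chosen after their values were seen. Promoter windows came from RefSeq (GRCm38.p6). Calculations used Python 3.11.15, numpy 2.4.6 and pandas 2.3.3, and the steps were tested on simulated data.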

Additional observations from a re-analysis of the deposited data

Results flagged for a closer look

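Of 308 of the genes named with values, 27 (8.77%) had 1 sample set apart from the other samples. Its gap to the nearest of them took more of the range of the 4 than Dixon's critical value, a limit that chance passes in about 1 group of 20. Of all 9900 genes above the level 619 (6.25%) passed it, so the named genes, some of which were chosen for their spread, are near that share. The fraction of the range taken by the gap is given for each.

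Replicate 1 was the low sample for Lzts1 (0.994), Manba (0.982), Tox3 (0.980), Lypd3 (0.958), Rps9 (0.922), Slc23a3 (0.913), Rhbdf1 (0.869) and Ublcp1 (0.838), whose values stand in the report. It was also low, by far less, for Rdx (0.896; 14.79 against 14.98 to 15.01), Obox5 (0.875; 14.03 against 14.27 to 14.30), Cox5a (0.888; 14.73 against 14.84 to 14.85), Figla (0.842; 8.62 against 9.27 to 9.39) and Lhx8 (0.830; 14.22 against 14.35 to 14.37). Fasn (0.956), Scrn1 (0.923) and Plin2 (0.845), given under the other observations, belong with the first of these.

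Replicate 2 was low for Oosp2 (0.935; 14.07 against 14.13 to 14.14) and Tubb2a (0.867; 14.70 against 14.78 to 14.79) and high for Dbt (0.847) and Pramel27 (0.934). Replicate 7 was low for the meiotic gene Spo11 (0.939; 2.66 against 2.92 to 2.94) and high for Dppa2 (0.919; 13.22 against 12.96 to 12.98), Bmp5 (0.915; 12.11 against 11.53 to 11.58) and Tgfb1 (0.839; 3.03 against 2.63 to 2.70). Replicate 8 was low for Slc14a1 (0.959) and Stag3 (0.849; 6.15 against 6.50 to 6.56), and replicate 1 was high for Camk2b (0.870; 3.03 against 2.74 to 2.77). Most of these gaps outside the wide-ranging genes are under 0.6 on the log2 scale.

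Of the 9160 probe sets with no listed gene, 1127 were above the level in all 4 samples. Among the 100 brightest probe sets of the arrays 11 had no listed gene and 23 had several, so that part of the brightest signal is not assigned to any gene here.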

How the results depend on the processing

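The count of 9900 genes above the level, the 252 members of the gene lists above it and the median SD of 0.18 stayed within 1.5 times under each alternative run for them. The gene count lay between 6749 at a level of log2 7 and 12199 at log2 4, and leaving out 1 replicate gave 9957 to 10011 genes, 252 to 257 members and SDs of 0.15 to 0.177. The order of the brightest genes depended on the probe set: 14 of the 30 stayed with the mean of all probe sets of a gene and 19 without sets of suffix _x_at or _s_at, but 29 to 30 on leaving out 1 replicate. The 19 are the genes whose brightest set has no such suffix, so they were bound to stay. With the mean of all probe sets, 40 genes spanned more than log2 2 in place of 75, and leaving out 1 replicate gave 35 to 59; these alternatives were added after seeing the data. The share of X-linked genes above the level was 30.9% at log2 7 (autosomes 37.4%) and 40.5% with the mean of all probe sets (autosomes 46.5%), with median levels of 7.57 and 7.58 in the second case. Of 308 genes named with values, the mean of all probe sets moved 131 lower by more than their SD and adding 16 to the intensity moved 91 higher, while quantile normalization and median centring moved none. The number of arrays, 4, limits the precision, and signal near the floor limits what a low value can show. Any effect of the upper end of the scale on the order and spread of the brightest genes was not tested.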

Other observations

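Further genes that differed between samples, chosen after their values were seen, act in metabolism and meiosis. Fasn, fatty acid synthase, had 6.53 in replicate 1 and 9.65, 9.54 and 9.68 in replicates 2, 7 and 8. Plin2, the coat protein of lipid droplets, had 7.70 in replicate 1 and 10.32, 10.31 and 9.92 in the others. Mei4, which takes part in making meiotic breaks, had 7.49, 11.70, 10.61 and 10.44. Pramel27, of the PRAME family, was high in replicate 2 alone with 13.23, against 9.41 to 9.66 elsewhere.

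Of genes with a second probe set, Scrn1 had 4.94, 7.91, 7.79 and 8.03 by its brightest set and 3.58, 8.19, 8.25 and 7.87 by the next. Prxl2a divided the samples as Arid5b did, with 7.31, 8.86, 6.50 and 8.50 by its brightest set and 7.09, 8.36, 6.13 and 8.15 by the next. Heca was low in replicates 1 and 2, with 6.80, 6.61, 8.97 and 9.45, and its next set had 4.99, 5.15, 7.51 and 7.95. In these genes both probe sets placed the same samples low.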
